A study of Mus musculus with 4 samples.

Results

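The 10 mouse genes described here together cover the regulators of fat cell formation and the proteins that take up and store lipid: the transcription factor genes Cebpb, Cebpd, Cebpa and Pparg, the lipid uptake and transport genes Lpl, Cd36 and Fabp4, the droplet coat genes Plin2 and Plin4, and the adipocyte hormone gene Adipoq. The members, 10 of the 18193 genes named by the arrays, were chosen by symbol, and every probe set that names a single one of them was read, 18 probe sets of 34945 that name 1 gene. RNA came from mouse embryonic fibroblasts (MEFs), mixed primary cells grown out of embryos. All cells were of C57BL/6 background and were kept in DMEM with 0% fetal calf serum for 24 h. The 4 conditions were FAN -/- cells treated with tumour necrosis factor (TNF), FAN -/- untreated cells, FAN +/+ cells treated with TNF and FAN +/+ untreated cells. TNF was given at 50 ng/ml for 16 h, after 8 h without serum. FAN is the product of Nsmaf, an adaptor at a TNF receptor that is linked to neutral sphingomyelinase. The labels do not say which part of the gene the FAN -/- cells lack. Each condition was measured on 1 Affymetrix whole-genome mouse array, and the comparisons are TNF against no TNF in each genotype and FAN -/- against FAN +/+ in each treatment.

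In the adipocyte programme C/EBP beta and C/EBP delta are induced first and turn on C/EBP alpha and PPAR gamma, a nuclear receptor, which then maintain each other and switch on the genes of lipid uptake and storage. Perilipins coat the lipid droplets that fill a fat cell, and lipoprotein lipase frees the fatty acids that CD36 and fatty acid binding proteins carry. TNF is known to block this programme and to raise C/EBP beta and delta as part of the inflammatory response. Embryonic fibroblasts can be turned into fat cells by hormone cocktails, but no such cocktail is named for these cultures.

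The array labels needed a check before use. The genotype entry of 2 samples goes against their titles, and the titles were followed. If the genotype entries were right, genotype and treatment could not be told apart. Nsmaf had log2 values of 7.48 with TNF and 7.91 untreated on the FAN -/- arrays, against 8.55 with TNF and 8.95 untreated on the FAN +/+ arrays. Its genotype difference in the additive limma fit described below was -1.06 ± 0.11 log2 (SE, adjusted p = 0.019), a check that is void if its probes lie outside the deletion. All values below are the deposited log2 probe set values unless a sentence says otherwise. Their floor was set at the median of all values, log2 6.27, and a value under the floor was raised to it for a fold change, which then is a bound. Medians of the 4 arrays lay between 6.21 and 6.30, and 49.2% to 50.5% of probe sets lay above the floor. With 1 array a condition nothing measures the spread of a single difference, and none is given a p-value. "Higher" and "lower" describe those arrays, at a 2-fold threshold for a call. "Rose" and "fell" are used of genes past an additive limma fit of genotype and TNF, in which each side of a term has 2 arrays. Whether the arrays came from separate cell preparations is not stated, so its p-values speak of these arrays. Precision is limited by the number of arrays throughout.

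Promoter sequence was found for 7 of the 10 genes in RefSeq (GRCm38.p6, 250 bases before to 50 after the annotated start). Cebpd, Fabp4 and Lpl had no window and were not searched. The windows of the droplet coat genes Plin4 and Plin2 are shown because these genes differed in their response to TNF, and capitals mark a match to the NF-kB motif. The most downstream of the annotated Pparg starts is shown because its window is the one of this gene with matches to the C/EBP motif TTGCNNAA, marked by capitals. The windows are Plin4 at chr17:56109733-56110032 (minus strand), Plin2 at chr4:86670010-86670309 (minus strand) and Pparg at chr6:115421816-115422115 (plus strand), each written 5′ to 3′ along its gene.
Plin4: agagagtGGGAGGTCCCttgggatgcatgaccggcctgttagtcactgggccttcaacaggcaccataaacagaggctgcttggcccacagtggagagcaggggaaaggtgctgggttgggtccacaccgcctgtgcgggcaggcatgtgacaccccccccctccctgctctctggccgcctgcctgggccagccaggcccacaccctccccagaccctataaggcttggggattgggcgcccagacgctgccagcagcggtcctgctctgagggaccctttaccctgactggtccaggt
Plin2: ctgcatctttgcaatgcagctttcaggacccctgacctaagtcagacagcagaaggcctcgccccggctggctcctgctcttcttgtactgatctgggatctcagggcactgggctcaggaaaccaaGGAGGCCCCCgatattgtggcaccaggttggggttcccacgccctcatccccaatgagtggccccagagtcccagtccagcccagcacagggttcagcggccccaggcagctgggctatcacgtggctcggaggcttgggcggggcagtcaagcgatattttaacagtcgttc
Pparg, downstream start: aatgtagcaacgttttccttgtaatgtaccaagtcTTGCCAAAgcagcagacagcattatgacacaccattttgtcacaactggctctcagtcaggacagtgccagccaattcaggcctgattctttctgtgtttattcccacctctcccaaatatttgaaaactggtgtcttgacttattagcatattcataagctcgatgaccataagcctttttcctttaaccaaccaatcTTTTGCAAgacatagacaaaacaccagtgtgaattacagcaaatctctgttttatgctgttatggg

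Both strands of the 9 windows of these 7 genes were searched. The NF-kB motif was found 243 to 234 bases before the Plin4 start, where the same letters match on either strand, and on the minus strand 123 to 114 bases before the Plin2 start. The other 7 windows had no match, and 8.46% of all 32851 RefSeq promoter windows hold one. TTGCNNAA was found in the downstream Pparg window, on the plus strand at 215 to 208 and on the minus strand at 16 to 9 bases before the start, and it occurs in 10.8% of all windows. AGGTCA, the core of nuclear receptor sites, was present in the Cd36, Plin2 and both upstream Pparg windows (16.3% of all windows). CCAAT was present in the Adipoq, Cd36, Plin2, Plin4, middle and downstream Pparg windows (37.4%), and TATAAA in the Cebpa, Cebpb and middle Pparg windows (13.6%). Motif matches describe letters only.

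Of the 10 genes, 8 lay above the floor on at least 1 array and 7 on at least 2. In untreated FAN +/+ cells these 8 were all above it, whereas Adipoq and Cd36 stayed under it on every array. Adipoq, which encodes adiponectin, had values of 3.95 and 3.91 on the TNF-treated and untreated FAN -/- arrays and 3.76 and 3.77 on the TNF-treated and untreated FAN +/+ arrays. Cd36, a fatty acid and scavenger receptor also made by macrophages and endothelial cells, has 3 probe sets, which lay between 3.40 and 4.39. No change of either gene was measurable here.

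Cebpb and Cebpd, which encode the early inducers, had higher values with TNF in both genotypes and, in the probe set of highest mean, lower values in FAN -/- than in FAN +/+ cells in both treatments. Cebpb had log2 values of 11.90 with TNF and 11.37 untreated in FAN -/- cells, against 12.41 with TNF and 11.90 untreated in FAN +/+ cells. The TNF difference was thus close to the same size in each genotype, 0.53 log2 (1.44-fold) in FAN -/- and 0.51 log2 (1.42-fold) in FAN +/+ cells, and TNF-treated FAN -/- cells stood at the level of untreated FAN +/+ cells. The second Cebpb probe set had values of 10.27 with TNF and 9.69 untreated in FAN -/- cells, against 10.97 and 10.39 in FAN +/+ cells, the same order of arrays. In the additive limma fit Cebpb fell in FAN -/- cells by 0.52 log2 (SE 0.08, adjusted p = 0.035). That call was lost in eBayes without the intensity trend (adjusted p = 0.064), with no filter on low values (0.057) and without the TNF term (0.48), within a range of 0.0068 to 0.48 over all settings. Its TNF term, 0.52 ± 0.08 log2, lay just outside the threshold (adjusted p = 0.054, from 0.022 to 0.76 over all settings).

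Cebpd responded to TNF unevenly. Its values were 11.26 with TNF and 10.93 untreated in FAN -/- cells, against 12.35 with TNF and 11.21 untreated in FAN +/+ cells, so that the TNF-treated FAN +/+ array stood above the other 3. The TNF difference was 0.33 log2 (1.25-fold) in FAN -/- cells and 1.13 log2 (2.19-fold) in FAN +/+ cells, and FAN -/- cells were 2.12-fold lower with TNF and 1.21-fold lower untreated. Both calls, the higher value with TNF and the lower one in FAN -/- cells, share the TNF-treated FAN +/+ array. A second probe set, nearer to the floor, had the same highest array, with 6.53 and 6.41 in TNF-treated and untreated FAN -/- cells against 6.86 and 6.39 in FAN +/+ cells, but its FAN +/+ difference was 0.46 log2, under 2-fold, and its untreated FAN -/- array stood 0.022 log2 above the FAN +/+ one. In limma Cebpd passed neither the TNF term (0.73 ± 0.21 log2, adjusted p = 0.17) nor the genotype term (-0.68 ± 0.21 log2, adjusted p = 0.14). With arrays centred on their medians it passed both, at the lowest adjusted p of each range, 0.037 to 0.77 for TNF and 0.020 to 0.54 for genotype. Of their relatives, Cebpg, a widely expressed partner of other C/EBPs, ranged from 8.80 to 8.99. Ddit3, which encodes CHOP, an inhibitor of other C/EBPs, had 10.24 and 10.47 in TNF-treated and untreated FAN -/- cells against 9.50 and 10.03 in FAN +/+ cells, and neither gene was 2-fold apart or past the fit.

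Cebpa and Pparg, the factors that hold the fat cell state, were at low levels and highest on the untreated FAN +/+ array. Cebpa had 6.89 with TNF and 7.16 untreated in FAN -/- cells, against 6.85 with TNF and 7.77 untreated in FAN +/+ cells. With TNF it was 1.20-fold lower in FAN -/- and 1.90-fold lower in FAN +/+ cells, short of 2-fold, and the TNF-treated arrays of the genotypes differed by 0.039 log2. Its TNF term was -0.60 ± 0.19 log2 (limma, adjusted p = 0.20). Pparg had 5.35 and 5.47 in TNF-treated and untreated FAN -/- cells, against 5.43 and 6.50 in FAN +/+ cells. It was therefore above the floor on the untreated FAN +/+ array alone, by 0.23 log2, and the folds of at least 1.17 against it are bounds. On the deposited scale, without a floor, Pparg was 2.09-fold lower with TNF in FAN +/+ cells and 2.03-fold lower in FAN -/- cells untreated. It did not reach the 2 arrays that the fit requires. Among 6 PPAR partners and related receptors above the floor, none was 2-fold apart or past limma in either term. Of all genes 0.794% to 2.89% were 2-fold apart and 1.14% to 3.67% past limma, by comparison and direction. Rxra, the partner with which PPAR gamma binds DNA, had 9.50 and 9.62 in TNF-treated and untreated FAN -/- cells against 9.70 and 10.18 in FAN +/+ cells.

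Lpl, encoding the lipase that releases fatty acids from lipoproteins, was lower with TNF in both genotypes by similar amounts. Its values were 5.65 with TNF and 7.19 untreated in FAN -/- cells, against 5.82 with TNF and 7.15 untreated in FAN +/+ cells. Both TNF-treated arrays lay under the floor and both untreated arrays above it. TNF was thus accompanied by Lpl at least 1.89-fold lower in FAN -/- and at least 1.85-fold lower in FAN +/+ cells. As deposited the differences were -1.54 and -1.34 log2. In limma Lpl fell with TNF by 0.90 log2 (SE 0.09, adjusted p = 0.025), with 2 of its 4 values set by the floor. Without a floor it fell by 1.44 log2 (adjusted p = 0.011). Over the settings that tested it the adjusted p ran from 0.0014 to 0.24, and the call was lost when the genotype term was left out. The second Lpl probe set was under the floor on all arrays, with 4.98 and 5.33 in TNF-treated and untreated FAN -/- cells against 4.83 and 5.47 in FAN +/+ cells, again with the untreated arrays on top. Untreated, the genotypes differed in Lpl by 0.034 log2, and with TNF both values were under the floor.

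Fabp4, a fatty acid carrier of fat cells that macrophages and endothelial cells also make, set the genotypes apart. Its probe set of highest mean had 6.52 with TNF and 5.45 untreated in FAN -/- cells, against 8.56 with TNF and 8.66 untreated in FAN +/+ cells. FAN -/- cells were thus 4.11-fold lower with TNF and at least 5.24-fold lower untreated. The difference with TNF was lower than that of 99.4% of the 12224 genes tested. The next probe set gave the same picture, with 6.19 and 5.54 in TNF-treated and untreated FAN -/- cells against 8.09 and 8.04 in FAN +/+ cells. The remaining 2 Fabp4 probe sets lay under the floor on every array, between 4.65 and 5.24. In limma Fabp4 fell in FAN -/- cells by 2.21 log2 (SE 0.14, adjusted p = 0.0085), with 1 of its 4 values set by the floor. The floor cut its difference of responses, which the fit takes as error, from 1.17 log2 as deposited to 0.35. With all 4 probe sets averaged both FAN -/- values were at the floor, so the fall of 0.40 log2 was a bound. The limma call was lost there (adjusted p = 0.058), as it was without the TNF term (0.063). The TNF difference of Fabp4 was 1.07 log2 as deposited in FAN -/- cells, where the untreated value was under the floor, and -0.10 log2 in FAN +/+ cells. In bulk RNA fewer cells of a type and less RNA per cell cannot be told apart.

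**Figure D1:**
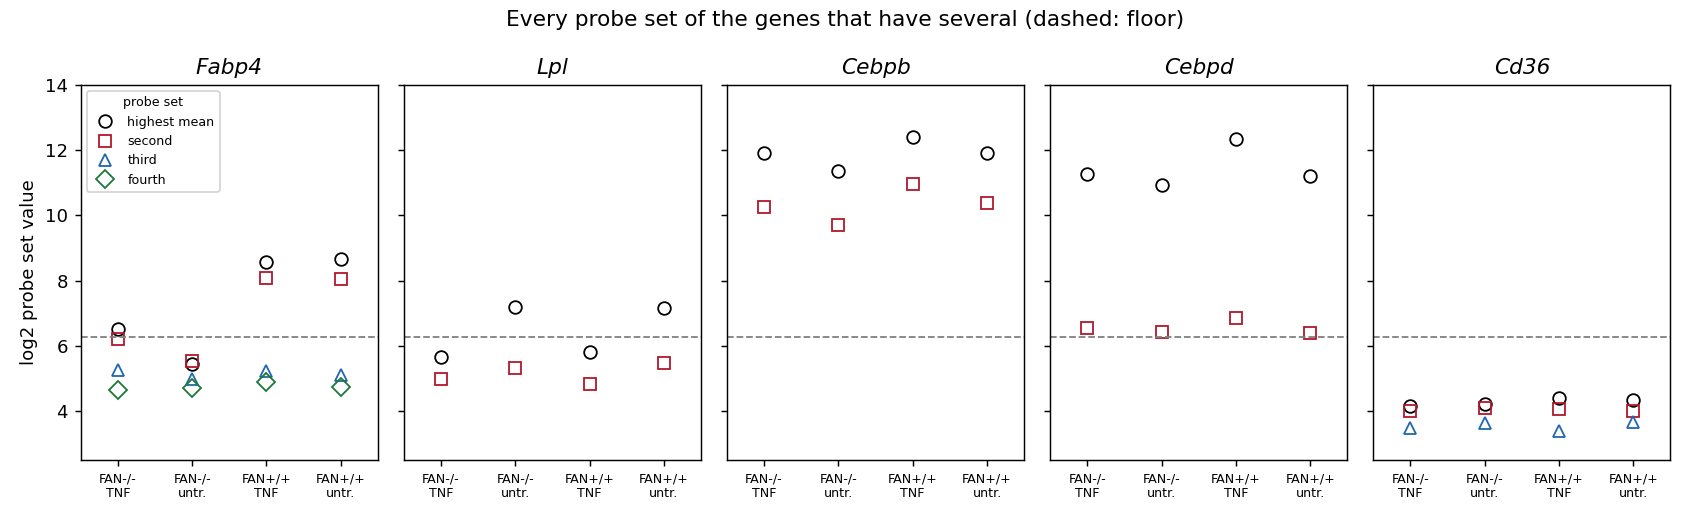
Log2 values (y axis) of every probe set of the 5 genes with more than 1, on the 4 arrays (x axis), with the floor of 6.27 as a dashed line. The 2 upper Fabp4 probe sets are both above 8 in FAN +/+ cells and between 5.45 and 6.52 in FAN -/- cells, while the 2 lower ones stay under the floor, and both Lpl probe sets are lower with TNF.

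Markers of cell types that make Fabp4 were read beside it. Of 9 adipocyte markers listed, 7 were measured. Adipoq, Cidec and Lep lay under the floor on every array, and the summed signal of the 5 markers other than Fabp4 and Adipoq was 390 and 356 on the TNF-treated and untreated FAN -/- arrays against 388 and 344 on the FAN +/+ arrays. Of these 5, Retn was 1.27-fold higher with TNF and 1.58-fold higher untreated in FAN -/- cells. The lipase gene Lipe was 1.25-fold lower with TNF and 1.42-fold lower untreated in FAN -/- cells. The glucose transporter gene Slc2a4 was 1.09-fold lower with TNF and 1.10-fold lower untreated. Of 8 endothelial markers 3 were above the floor on each array, the defining genes Pecam1 and Cdh5 were not, and the sum was 587 and 574 on the TNF-treated and untreated FAN -/- arrays against 544 and 591 on the FAN +/+ arrays. Of 11 macrophage and leukocyte markers 5 were above the floor and 6 under it on every array, Ptprc, Adgre1 and Itgam among the 6, and the sum of all 11 was 1311 and 1783 on the TNF-treated and untreated FAN -/- arrays against 1409 and 958 on the FAN +/+ arrays. The sum moved with a few genes. Lyz2, a lysozyme gene of myeloid cells, had 8.28 and 9.60 in TNF-treated and untreated FAN -/- cells against 8.44 and 7.89 in FAN +/+ cells, 3.28-fold higher in FAN -/- cells untreated. Csf1r, the receptor for a macrophage growth factor, had 7.71 and 7.90 in TNF-treated and untreated FAN -/- cells against 7.68 and 6.60 in FAN +/+ cells, 2.46-fold higher in FAN -/- cells untreated. Cd14, a co-receptor for lipopolysaccharide, was 1.28-fold higher with TNF in FAN -/- cells and 2.25-fold higher in FAN +/+ cells, and none of these genes passed limma. All 10 fibroblast markers were above the floor, with sums of 84352 and 97278 on the TNF-treated and untreated FAN -/- arrays against 112710 and 112400 on the FAN +/+ arrays. Among them Lum, Pdgfra and Dcn fell in FAN -/- cells in limma, where 3.67% of all genes did. Lum had a term of -4.97 log2 (SE 0.48, adjusted p = 0.016), Pdgfra of -1.62 (SE 0.13, adjusted p = 0.011) and Dcn of -1.64 (SE 0.24, adjusted p = 0.035). Of the 10 genotype terms 6 were negative and 4 positive. Thy1, a surface protein of fibroblasts, fell with TNF by 0.82 log2 (SE 0.12, limma adjusted p = 0.0498), where 1.14% of all genes did. In FAN -/- cells Thy1 was 1.30-fold higher with TNF and 1.54-fold higher untreated, without passing the genotype term. The part of these markers in the Fabp4 difference was not tested.

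Plin2 and Plin4 differed in pattern. Plin2, the perilipin of droplets in most cell types, had 12.23 with TNF and 11.92 untreated in FAN -/- cells, against 11.36 with TNF and 11.65 untreated in FAN +/+ cells. FAN -/- cells were 1.83-fold higher with TNF and 1.20-fold higher untreated. TNF went with a higher value in FAN -/- cells (1.24-fold) and a lower one in FAN +/+ cells (1.22-fold). None of these reached 2-fold, and the limma genotype term was 0.57 ± 0.16 log2 (adjusted p = 0.13, from 0.058 to 0.29 over all settings).

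Plin4, a perilipin of nascent droplets, had the widest range of the 10 genes. Its values were 6.54 with TNF and 6.88 untreated in FAN -/- cells, against 7.07 with TNF and 9.18 untreated in FAN +/+ cells. One array, that of untreated FAN +/+ cells, thus stood above the other 3, which lay within 0.53 log2 of each other. Plin4 was 1.26-fold lower with TNF in FAN -/- cells and 4.31-fold lower in FAN +/+ cells, and FAN -/- cells were 1.44-fold lower with TNF and 4.92-fold lower untreated. The difference of the responses, FAN -/- minus FAN +/+, was 1.77 log2, larger than that of 99.9% of the 12224 genes tested, and no degree of freedom was left to test it. As the additive fit counts an uneven response as error, Plin4 passed neither the TNF term (-1.22 ± 0.43 log2, limma, adjusted p = 0.24) nor the genotype term (-1.41 ± 0.43 log2, adjusted p = 0.15). Over all settings the adjusted p ranged from 0.058 to 0.81 for TNF and from 0.021, with centred arrays, to 0.49 for genotype. A single probe set names Plin4, and the 4.31-fold and 4.92-fold differences rest on the same untreated FAN +/+ array. The genes whose 4 values, each less the mean of the gene and after the floor, lay nearest to those of Plin4 were Cacna2d3 at a Euclidean distance of 0.28, Lrrtm3 at 0.30 and Carns1 at 0.35. Carns1 had 6.81 and 7.10 in TNF-treated and untreated FAN -/- cells against 7.64 and 9.28 in FAN +/+ cells, while both FAN -/- values of Cacna2d3 and Lrrtm3 were under the floor.

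**Figure D2:**
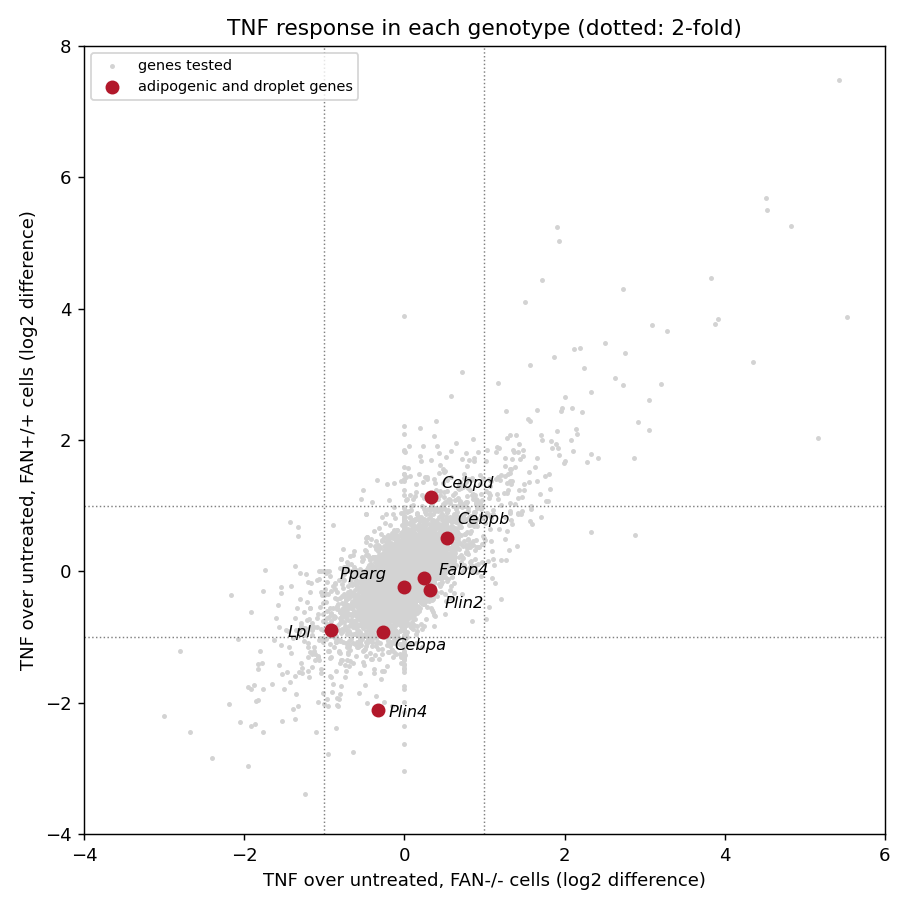
Log2 difference of TNF-treated over untreated cells in FAN -/- cells (x axis) and FAN +/+ cells (y axis), after the floor, for 12224 genes (grey points) and the 8 members above the floor (red points). Plin4 at -2.11 and Cebpd at 1.13 pass 2-fold on the FAN +/+ axis, and no member passes it on the FAN -/- axis.

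Counted over the 8 members above the floor, with TNF 0 passed 2-fold upward and 0 downward in FAN -/- cells, where 1.35% of all 12224 genes were higher and 1.07% lower. The members were chosen with earlier results of these data known, so shares of all genes beside such counts are description and test nothing. In FAN +/+ cells Cebpd was higher (background 2.2%) and Plin4 lower (1.92%). Between genotypes Cebpd and Fabp4 were at least 2-fold lower in FAN -/- cells with TNF (background 2.64%) and Fabp4 and Plin4 untreated (2.89%), and 0 were at least 2-fold higher in either treatment (backgrounds 1.55% with TNF and 1.45% untreated). For the difference of the responses Plin4 was the 1 positive call (0.794%), and 0 were negative (0.818%). The median log2 difference of the 8 members was 0.13 for TNF in FAN -/- cells (all genes 0.0063) and -0.26 in FAN +/+ cells (all genes -0.035). It was -0.25 between genotypes with TNF (all genes 0.013) and -0.41 untreated (all genes -0.027). A member above the floor on the untreated FAN +/+ array alone, as Pparg was, could only be lower elsewhere. In limma 1 of 7 members fell with TNF, Lpl, against 1.14% of 11817 genes, and 0 rose (background 1.57%). Of the 7, Cebpb and Fabp4 fell in FAN -/- cells (background 3.67%) and 0 rose (2.94%). At an unadjusted p under 0.05 limma counted 2 of the 7 higher (Cebpb and Cebpd) and 3 lower (Cebpa, Lpl and Plin4) for TNF, and 1 higher (Plin2) and 4 lower (Cebpb, Cebpd, Fabp4 and Plin4) for genotype.

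**Figure D3:**
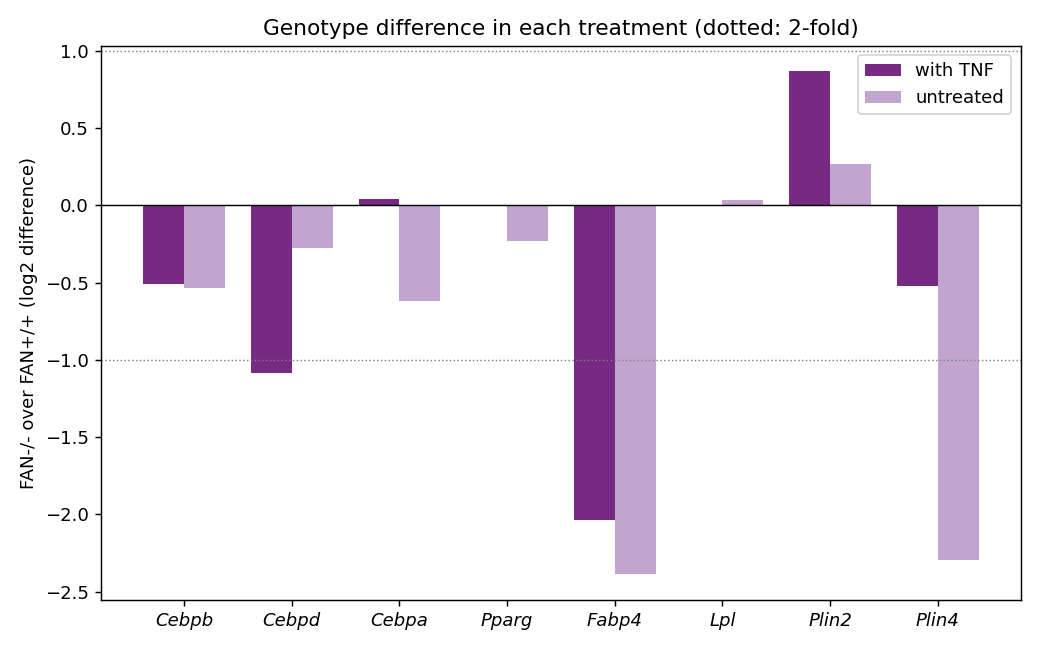
Log2 difference of FAN -/- over FAN +/+ cells (y axis) for the 8 members above the floor (x axis), with TNF (dark bars) and untreated (light bars), 1 array against 1 and with no error bars for that reason. Fabp4 is lower by over 2 log2 in both treatments, Plin4 chiefly untreated, Cebpd chiefly with TNF, and Plin2 stands above 0 in both; bars of 0 for Pparg and Lpl with TNF mean that both values were at the floor.

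Genes around the 10 members were read from lists by role. These lists were also chosen with earlier results of these data known, so shares of all genes beside them are description only. Among 12 factors that promote fat cell formation and entered the fit, none passed the TNF term and 3 fell in FAN -/- cells (3.67% of all genes did), with a list median of -0.17 log2 for genotype against -0.0078 for all genes. Ebf1, an early B-cell factor that promotes adipogenesis, had 7.58 with TNF and 8.51 untreated in FAN -/- cells against 9.81 and 10.36 in FAN +/+ cells, and fell by 2.04 log2 (SE 0.14, limma adjusted p = 0.0096). Zfp467, a zinc finger factor that favours fat over bone cells, fell by 0.73 log2 (SE 0.12, adjusted p = 0.041) and Stat5a, a mediator of growth hormone signals, fell by 0.77 log2 (SE 0.12, adjusted p = 0.041). Bmp4, a growth factor that commits precursors to the fat lineage, was 2.98-fold lower with TNF in FAN -/- cells and 1.42-fold lower in FAN +/+ cells.

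Among 14 inhibitors of fat cell formation, Klf2 fell with TNF (-1.11 ± 0.13 log2, limma adjusted p = 0.031) and Wnt5a rose in FAN -/- cells (1.20 ± 0.11 log2, adjusted p = 0.016), 1 gene each where 1.14% and 2.94% of all genes did. Klf2, which represses Pparg, had 9.82 with TNF and 10.74 untreated in FAN -/- cells against 10.35 and 11.65 in FAN +/+ cells. Wnt5a, a Wnt ligand, had 10.03 and 10.62 in TNF-treated and untreated FAN -/- cells against 8.72 and 9.53 in FAN +/+ cells. The list median was -0.37 log2 for TNF (all genes -0.017) and 0.16 for genotype (all genes -0.0078). Dlk1, the preadipocyte factor, was even between TNF-treated and untreated FAN -/- cells (10.11 and 10.16) and was 2.14-fold lower with TNF in FAN +/+ cells (8.65 and 9.75). Like Plin4 it had a difference of responses above 2-fold (1.04 log2), as 0.794% of all genes did. That of Bmp4 was above 2-fold the other way (-1.07 log2, 0.818% of all genes). Hes1, a Notch target, was 1.67-fold lower with TNF in FAN -/- and 2.68-fold lower in FAN +/+ cells, and neither Dlk1 nor Hes1 passed the fit. Id2, an inhibitor of helix-loop-helix factors, had 7.72 with TNF and 8.91 untreated in FAN -/- cells against 8.77 and 9.32 in FAN +/+ cells. It was 2.27-fold lower with TNF in FAN -/- and 1.47-fold lower in FAN +/+ cells, and 2.06-fold lower in FAN -/- than in FAN +/+ cells with TNF. Its limma terms were -0.87 ± 0.18 log2 for TNF and -0.73 ± 0.18 log2 for genotype (adjusted p = 0.10 each).

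Of 13 coat and lipolysis genes above the floor, none was 2-fold apart in any comparison. Of all genes only 0.794% to 2.89% were, by comparison and direction, so so short a list would often hold none. Mgll, which encodes the lipase of the last step of triglyceride breakdown, had 7.31 with TNF and 8.24 untreated in FAN -/- cells against 6.70 and 7.51 in FAN +/+ cells. It fell with TNF (-0.87 ± 0.11 log2, limma adjusted p = 0.039) and rose in FAN -/- cells (0.67 ± 0.11 log2, adjusted p = 0.043), where 1.14% and 2.94% of all genes did. Plin3, a further perilipin, lay between 9.72 and 10.24. Of 14 triglyceride synthesis genes none passed either term, where 1.14% to 3.67% of all genes did by term and direction. Acsl4, which activates long-chain fatty acids, was 1.71-fold higher with TNF in FAN -/- and 2.09-fold higher in FAN +/+ cells (TNF term 0.92 ± 0.13 log2, limma adjusted p = 0.051).

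Among 12 genes of lipid uptake and of lipoprotein lipase control, 1 passed the fit, Angptl4. It passed upward for TNF, as 1.57% of all genes did, and downward for genotype, as 3.67% did. It encodes a secreted inhibitor of lipoprotein lipase. Its values were 11.48 with TNF and 10.24 untreated in FAN -/- cells, against 11.98 with TNF and 10.78 untreated in FAN +/+ cells. It rose with TNF by 1.22 log2 (SE 0.09, limma adjusted p = 0.013), 2.38-fold in FAN -/- and 2.30-fold in FAN +/+ cells, while Lpl fell, and it fell in FAN -/- cells by 0.52 log2 (SE 0.09, adjusted p = 0.042). Vldlr, a receptor for lipoproteins, was 1.32-fold lower with TNF in FAN -/- and 2.20-fold lower in FAN +/+ cells. Against FAN +/+ cells, Vldlr was 2.46-fold higher in FAN -/- cells with TNF and 1.48-fold higher untreated. Fabp3, a relative of Fabp4, was 1.10-fold lower with TNF in FAN -/- and 2.04-fold lower with TNF in FAN +/+ cells, and neither gene passed the fit. The list median for TNF was -0.14 log2 (all genes -0.017) and for genotype -0.032 (all genes -0.0078). Of 7 other adipocyte products above the floor, resistin (Retn) and the glucose transporter gene Slc2a4 among them, none was 2-fold apart in any comparison or past the fit. Of all genes 0.794% to 2.89% were 2-fold apart and 1.14% to 3.67% past the fit, by comparison and direction.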

How the data were processed

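RNA of 4 conditions was hybridised to 1 Affymetrix mouse array each (45101 probe sets). Deposited were log2 values per probe set, a scale taken from their range. MAS5 was used by the authors, per the submitters' processing notes, with no version; the nearly equal quantiles of the 4 arrays leave the summary method and the normalization unknown, and with them how far low values and differences were compressed. Probe sets were named from the platform annotation: 34945 name 1 gene, 932 several, 9160 none, and 64 are controls. Entrez identifiers of 34741 matched the RefSeq gene table. The probe set of highest mean stands for its gene, and values were floored at the 50th percentile (log2 6.27). Genes above the floor on at least 1 array (12224) entered the comparisons of 1 array with 1. Those above it on at least 2 (11817) entered limma 3.58.1 in R 4.3.3 (lmFit, eBayes with trend, genotype and TNF additive, 1 residual and 3.52 prior degrees of freedom, Benjamini-Hochberg over all genes, threshold 0.05). On simulated data the fit recovered 148 of 200 genes changed by 1 log2 with TNF, with 9 false calls. The simulation used the variances the fit assumes, with additive TNF changes, no genotype change and no flooring. It therefore cannot speak of uneven responses or floored values.

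Named genes are the 10 members, list genes at least 2-fold apart or past limma, Nsmaf, and the 3 nearest profiles; other list genes were named as background with their values seen. The members and lists were chosen with earlier results of these data known. Some list genes and protein sequences were not analysed here. Alternatives were other floors, no floor, quantile normalization, centring, averaged or second probe sets, eBayes without trend or robust, each term alone, and no filter.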

Additional observations from a re-analysis of the deposited data

Results flagged for a closer look

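For Plin2 the TNF difference had opposite signs in the genotypes, 0.32 log2 in FAN -/- cells and -0.28 log2 in FAN +/+ cells. For Fabp4 it was 0.25 log2 in FAN -/- cells, a bound since the untreated value was at the floor, and -0.10 log2 in FAN +/+ cells. For Cebpa the genotype difference was 0.039 log2 with TNF and -0.62 log2 untreated. With 1 array a condition, each of these differences between groups was not tested.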

How the results depend on the processing

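No paired analysis was possible because each condition has 1 array and the labels give no replicate numbers. Quantile normalization changed no member count apart from adding Cebpb as a TNF call (1 higher). With a floor at the 30th percentile or none, Fabp4 and Lpl became 2-fold calls for TNF in FAN -/- cells (1 higher and 1 lower), 3 members were at least 2-fold lower with TNF in FAN +/+ cells, and 2 had a difference of responses above 2-fold. With a floor at the 70th percentile Fabp4 was no longer 2-fold lower in FAN -/- cells, at -0.71 log2 with TNF and -0.81 untreated, bounds as its FAN -/- values were at that floor. That left 1 member at least 2-fold lower in each treatment, Cebpd with TNF and Plin4 untreated. In limma 1 rose and 0 fell with TNF at that floor, under which Lpl lay on every array and was not tested. With all probe sets averaged, 0 were 2-fold higher with TNF in FAN +/+ cells, and 0 and 1 were lower in FAN -/- cells with TNF and untreated. Averaged, the genotype difference of Fabp4 was -0.42 log2 with TNF and -0.37 untreated, and that of Cebpd -0.71 with TNF. The Fabp4 differences were bounds, since both averaged FAN -/- values were at the floor. In limma on these averages 1 rose and 0 fell with TNF and 1 fell with genotype. Averaged, Lpl was not above the floor on the 2 arrays that the fit requires and was not tested. With centred arrays 2 rose with TNF (Cebpb and Cebpd) and 4 fell in FAN -/- cells (Cebpb, Cebpd, Fabp4 and Plin4). Without a floor 1 rose with TNF. Without the trend, or with no filter, 1 fell in FAN -/- cells, and with each term alone 0 members passed either term. The cause was not tested beyond these settings. Of 377 member values under these settings 16 turned sign, none of them a 2-fold call and each at most 0.066 log2 in size after the turn. In limma these were the TNF term of Fabp4 (-0.051 log2 at the 70th percentile floor), that of Plin2 (-0.015 centred), and the genotype term of Lpl (-0.066 without a floor, with no filter or at the 30th percentile, -0.022 centred). Between single arrays they were the TNF difference of Fabp4 in FAN +/+ cells (0.055 averaged, 0.051 for the second probe set, against -0.10), its difference of responses (-0.055 and -0.051, against 0.35), that of Cebpb (-0.0065, second probe set), the untreated genotype difference of Cebpd (0.022, second probe set, against -0.28), and for Lpl the untreated genotype difference (-0.044 centred, -0.046 averaged) and the difference of responses (0.044 and 0.046). For the turned difference of responses of Fabp4 both FAN -/- values were at the floor, which left the FAN +/+ response alone. As deposited this difference was 0.60 log2 for the second Fabp4 probe set and 1.17 log2 for the first, of the same sign. The averaged Lpl values of FAN -/- cells were at the floor as well. Over all genes centring gave 405 higher and 518 lower TNF calls, against 186 and 135 as deposited, and 532 higher and 980 lower genotype calls, against 347 and 434. Lower TNF calls numbered 225 at the 70th percentile floor, 208 without a floor and 71 with no filter. Each term alone gave 0 and 0 for TNF, and 4 and 6 for genotype. Lpl with TNF and Fabp4 with genotype remained in limma under every change of floor and scaling that tested them. The 2-fold genotype calls of Fabp4 did not, being lost at the 70th percentile floor and with averaged probe sets. In both settings its FAN -/- values were at the floor, so these smaller differences were bounds.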
